A study of Mus musculus with 2 samples.

Results

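Cells with a high load of p53 target transcripts were singled out among mouse hematopoietic stem cells that had been cultured with the compound RO-3066 or with its vehicle, dimethyl sulfoxide (DMSO). A cell was a member when the UMIs (unique molecular identifiers, that is, distinct captured transcripts) of 7 genes, Cdkn1a, Phlda3, Gdf15, Zmat3, Trp53inp1, Ddit4l and Ercc5, added up to a load of at least 400 CPM (UMIs per 1000000 UMIs of that cell). The rule found 292 members among 9724 kept cells of 10042 barcodes. Of these, 259 were among 3674 RO-3066 cells and 33 among 6050 DMSO cells. The members were chosen by the measured UMIs of these 7 genes, so the levels of the 7 are given as a description, and the results below concern other genes, compared between members and the other cells of the same library.

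The transcription factor p53 is stabilised when DNA is damaged or division fails, binds a short motif near its target genes and raises their transcription. Its targets hold the cell cycle (Cdkn1a encodes the inhibitor p21), trigger cell death (Bax, Bbc3), aid repair (Polk) and limit p53 itself (Mdm2, which marks p53 for destruction). In blood-forming stem cells p53 is known for its part in quiescence and in the loss of cells after irradiation.

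The labels give no genotype or strain. Both groups were labelled as blood in tissue and as hematopoietic stem cells in cell type, and differed in the agent present during 48 h of suspension culture. The labels give neither the dose nor the target of RO-3066, nor the age, sex or number of the mice, nor the gate of any sort. Droplet libraries of transcript 3' ends were made, 1 per treatment, so that no difference here has a replicate check, no test across samples was possible, and an effect of the treatment cannot be told apart from one of the library. Intervals are at 95% confidence and cover counting error only. The DMSO library held 188022321 UMIs and the RO-3066 library 171821236. Barcodes with fewer than 10000 UMIs or 500 genes, or with more than 10% mitochondrial UMIs, were left out, which removed 110 DMSO and 208 RO-3066 barcodes. In all, 7 barcode sequences occurred in both libraries, 4 of them among kept cells, and 1 of the 7 belonged to a member.

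The members were somewhat shallower than the cells they were compared with. RO-3066 members had a median of 29409 UMIs and 5397 genes against 36864 UMIs and 5863 genes in the other RO-3066 cells, and DMSO members 19742 UMIs against 24481. Mitochondrial genes gave a median of 1.77% of UMIs in RO-3066 members and 1.69% in the others. Likely doublets were marked but kept, and made up 15 of the RO-3066 members (5.79%) against 104 of the other cells (3.05%). Among DMSO members they were 4 (12.1%), against 299 (4.97%). Defining markers of stem cells (Hlf, Mecom, Procr, Ly6a, Kit, Fgd5, Esam) summed to 381 CPM (here over the summed UMIs of the cells) in RO-3066 members and 285 in the other cells, with none of the 7 at 0 among members. Lymphoid markers summed to 0.110 CPM in RO-3066 members, with Cd3e, Il7r and Dntt at 0. Of 7 neutrophil and monocyte markers 1 was at 0, and their sum was 88.7 CPM in members against 86.0 in the other cells. Only 2 of the 7 reached 5 CPM, and Lyz2 alone gave 79.0 CPM in members and 68.4 in the other cells. Mast cell and basophil markers summed to 3.86 against 7.33 CPM, and the 6 erythroid markers to 12.02 against 21.0. Of these 6, only 1 reached 5 CPM. A longer list of 20 erythroid genes summed to 1498 CPM in members against 1135 in the other cells. Of its 9 genes of at least 5 CPM over all kept RO-3066 cells, 1 was at least 1.5-fold higher and 3 lower. Over all 9197 genes at that level, 3.35% were higher and 3.28% lower.

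The promoters of 2 genes of the rule and of 2 targets outside it are shown because each holds a match to a half-site of the motif through which p53 acts. RefSeq promoter windows (GRCm38.p6, from 250 bases before to 50 after the annotated start) were searched on both strands for the p53 half-site consensus, a motif of 10 bases that is its own reverse complement. It occurred in 8.36% of 32851 windows in the mouse genome. Of the genes of the rule, 5 had windows, and 2 of their 7 windows held the motif. For the p53 targets outside the rule it was 16 of 76 windows, belonging to 15 of 57 genes. The 250 bases before the start are printed 5′ to 3′ along the gene, with the half-sites in capitals.
Cdkn1a (chr17:29090729-29090978, plus strand): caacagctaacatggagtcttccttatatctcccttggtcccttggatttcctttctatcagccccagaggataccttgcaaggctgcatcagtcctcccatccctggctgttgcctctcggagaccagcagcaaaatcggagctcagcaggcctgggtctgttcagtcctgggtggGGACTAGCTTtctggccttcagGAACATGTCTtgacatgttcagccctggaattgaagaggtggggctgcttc
Ddit4l (chr3:137623422-137623671, plus strand): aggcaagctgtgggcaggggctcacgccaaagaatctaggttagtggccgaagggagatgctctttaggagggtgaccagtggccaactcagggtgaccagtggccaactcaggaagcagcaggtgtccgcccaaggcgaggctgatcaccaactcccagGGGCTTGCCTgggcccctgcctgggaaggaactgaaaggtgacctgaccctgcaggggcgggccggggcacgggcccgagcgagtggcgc
Mdm2 (chr10:117710759-117711008, minus strand): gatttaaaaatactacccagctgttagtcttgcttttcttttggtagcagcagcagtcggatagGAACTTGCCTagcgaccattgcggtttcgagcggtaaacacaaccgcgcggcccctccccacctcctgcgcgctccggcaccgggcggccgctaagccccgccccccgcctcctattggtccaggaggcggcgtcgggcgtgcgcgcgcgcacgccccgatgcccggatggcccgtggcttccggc
Ccng1 (chr11:40755287-40755536, minus strand): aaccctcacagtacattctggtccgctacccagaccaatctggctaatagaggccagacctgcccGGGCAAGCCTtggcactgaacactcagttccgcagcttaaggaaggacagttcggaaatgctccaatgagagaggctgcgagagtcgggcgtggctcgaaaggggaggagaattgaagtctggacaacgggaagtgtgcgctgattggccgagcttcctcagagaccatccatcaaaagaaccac
The 2 half-sites of Cdkn1a began 73 and 51 bases before the start, and the second is part of a pair written CATGNNNNNNCATG, which 0.712% of all windows held. Of the 76 windows of targets outside the rule, 0 held that pair. The half-sites of Ddit4l, Mdm2 and Ccng1 began 90, 186 and 185 bases before the start. Cdkn1a also has a second annotated start, whose window held no match, as did the windows of Phlda3, Gdf15 and Ercc5, which says only that the motif is not within these bases. A match is a description of the sequence and not a measured site.

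Members made up 7.05% of kept RO-3066 cells (6.24 to 7.93%) and 0.545% of kept DMSO cells (0.376 to 0.765%). The load ran on without a gap across the limit. In RO-3066 it was 400.1 to 437 CPM in the 23 cells just inside, and 360.4 to 396 in the 16 cells that reached 360 CPM without meeting it. RO-3066 members had a median load of 764 CPM and a highest of 3095, against a median of 48.3 in the other cells. The load rested on 5 to 142 UMIs a cell in RO-3066 members, with a median of 23, and on 5 to 146 in DMSO members, with a median of 14. With each cell thinned to 10000 UMIs, 300 RO-3066 cells (8.17%) and 53 DMSO cells (0.876%) had the 4 UMIs that the limit then asks for. Of the 259 RO-3066 members, 241 were among these 300 and 18 were lost. With RO-3066 cells split by depth into 4 equal groups, from the shallowest to the deepest, members were 11.3%, 5.88%, 8.28% and 2.72%.

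**Figure D1:**
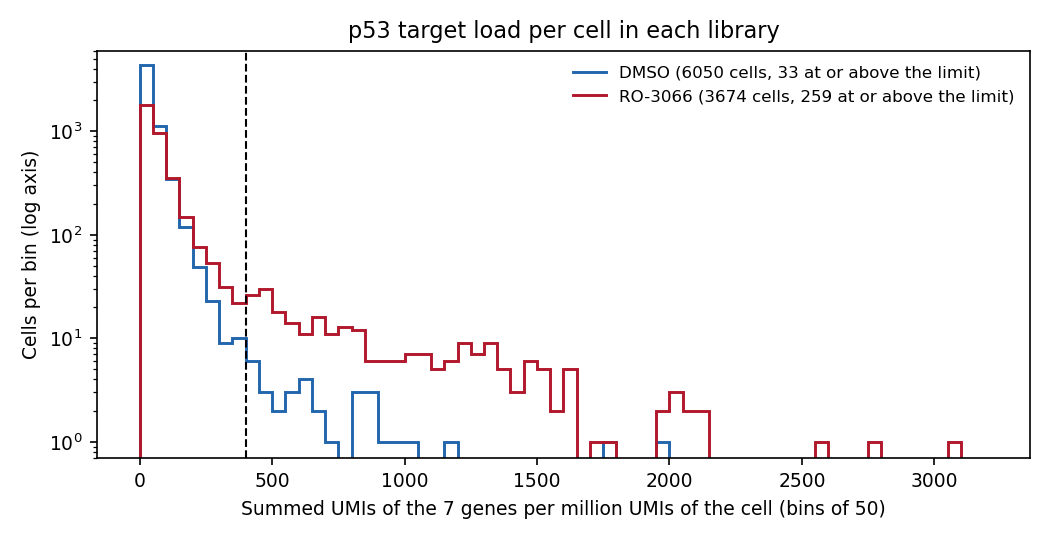
Number of cells (log axis) by p53 target load, the summed UMIs of the 7 genes in CPM of the cell, in bins of 50, for the DMSO and RO-3066 libraries; the dashed line is the limit of 400 CPM. The RO-3066 curve (259 cells past the limit, up to 3095 CPM) lies above the DMSO curve (33 cells) on the right side of the line, and neither shows a gap at it.

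Among the genes of the rule, Cdkn1a gave 45.8% of the RO-3066 members' UMIs. It was at 406 CPM in RO-3066 members and 32.01 in the other RO-3066 cells, and at 407 CPM in DMSO members and 20.8 in the other DMSO cells. Phlda3, an inhibitor of Akt signalling, was at 158 against 8.72 CPM within RO-3066. Gdf15, a secreted stress cytokine, stood at 119 against 8.15 CPM within RO-3066 but at 20.6 against 1.84 CPM within DMSO, so that its level was lower in DMSO members while that of Cdkn1a was alike. Zmat3 (an RNA-binding protein) was at 55.0 against 4.56 CPM, Trp53inp1 (an autophagy and death regulator) at 49.6 against 2.39, Ercc5 (a repair nuclease) at 58.3 against 8.68 and Ddit4l (an inhibitor of mTOR signalling) at 40.9 against 0.327. The RO-3066 members held 41.5% of all Cdkn1a UMIs of the kept cells in their library, 50.4% of those of Phlda3, 45.0% of those of Gdf15 and 87.5% of those of Ddit4l. At least 4 of the 7 genes had a UMI in 217 members (83.8%) and in 316 other RO-3066 cells (9.25%), and the part of free RNA in such shares was not tested. Cdkn1a was the most abundant of the 7 in 193 RO-3066 members (74.5%), Gdf15 in 33 (12.7%) and Phlda3 in 16.

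The p53 targets that the rule did not use were higher in the members as well. Of 67 such genes listed, 43 had at least 5 CPM over all kept RO-3066 cells. At least 1.5-fold higher in members were 25 of these 43 (58.1%), and 0 were at least 1.5-fold lower. Over all 9197 genes at that level, the share higher was 3.35% and the share lower 3.28%. The median log2 ratio of the 43 (with a pseudocount of 1 CPM) was 0.74, and that of all genes -0.02. Another 11 listed genes, among them Eda2r, Fas, Perp and Pmaip1, reached 5 CPM in members alone and so had to be higher there, and 13, among them Sfn, Trp73, Ddb2 and Kitl, stayed under it in both groups. With the 11 counted in, 36 of 54 were higher and 0 lower, against 4.75% and 3.19% of 9507 genes, with a median log2 ratio of 1.23 (0.60 to 1.77 over the genes). Summed over all 67, the targets held 5328 CPM in members and 2860 in the other cells, 1.86-fold higher (1.85 to 1.88).

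Of targets that act back on p53 or hold the cycle, 8 of the 12 with at least 5 CPM over all kept RO-3066 cells were at least 1.5-fold higher and 0 lower, with a median log2 ratio of 1.28. Gadd45a and Zfp365 reached that level in members alone and are not counted. Mdm2 (chromosome 10, 117688875 to 117710758, mm10) was at 117 CPM in members and 24.5 in the other RO-3066 cells, 4.76-fold higher (4.45 to 5.10). Its relative Mdm4, which masks the activating part of p53, was at 109 against 41.1 CPM. Ccng1, a cyclin that works with Mdm2 (chromosome 11, 40748552 to 40755311), was at 151 against 23.6 CPM, 6.38-fold higher (5.99 to 6.78). Psrc1, a microtubule-binding protein of the spindle, stood at 110.5 against 16.4 CPM, 6.74-fold (6.26 to 7.25). Plk2, a kinase of the polo family, was at 33.1 against 4.19 CPM, and Sesn2, which restrains mTORC1, at 45.0 against 8.84. Btg2, an antiproliferative factor, had 80.5 against 35.2 CPM, and Ppm1d, the phosphatase that switches the p53 response off, 33.3 against 19.5. Not all known targets differed by that much: Sesn1 was at 22.4 against 19.2 CPM and Pml at 40.5 against 34.6. The transcript of p53 itself, Trp53, was at 190 CPM in both groups (fold 1.001, 0.953 to 1.05).

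Of the cell death targets at that level, 7 of 10 were higher and 0 lower, with a median log2 ratio of 1.196. Pmaip1, Fas, Tnfrsf10b, Perp and Eda2r reached it in members alone, so that their higher levels follow from the minimum. Bax, the pore-forming protein of the mitochondrial death pathway, was the most abundant, at 725 against 303 CPM, 2.39-fold higher (2.33 to 2.46). Of the BH3-only proteins that set Bax free, Bbc3 was at 78.1 against 19.6 CPM and Pmaip1 at 7.83 against 0.568. The death receptor Fas and Eda2r, a receptor of the same family, had 24.4 against 3.03 CPM and 21.3 against 0.772, the latter 27.6-fold higher (21.9 to 34.8). Perp, a membrane protein of p53-dependent death, stood at 20.5 against 2.75 CPM, the nuclease Aen at 96.6 against 37.7, and Apaf1, which assembles the caspase platform, at 26.6 against 11.6. Bid, another BH3-only protein, was at 15.6 against 15.5 CPM. Of 7 BCL2 family genes kept outside the p53 list, 0 were higher and 0 lower at that level, against 3.35% and 3.28% of all genes. Bcl2l11, a BH3-only protein that reached 5 CPM in members alone, was at 8.93 against 3.92 CPM, while the survival factor Bcl2 stood at 53.5 against 79.6 CPM and Mcl1 at 121 against 99.7.

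Of the repair targets, 2 of 7 were higher and 0 lower, with a median log2 ratio of 0.05. These were Polk, a polymerase that copies damaged DNA, at 39.5 against 10.9 CPM (3.62-fold, 3.22 to 4.06), and Mgmt, which removes alkyl groups from guanine, at 64.9 against 27.6 CPM. Xpc, a damage sensor, was at 29.6 against 25.2 CPM, Rrm2b, a ribonucleotide reductase subunit, at 12.2 against 13.5, and Polh at 8.16 against 7.85. In a separate list of 34 genes of damage signalling and repair, 0 were higher and 0 lower, with a median of -0.04. Over all 9197 genes of at least 5 CPM over all kept RO-3066 cells, 3.35% were higher and 3.28% lower. The counts of 0 among the 34 lie near these shares.

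Of targets in metabolism and other roles, 8 of 14 were higher and 0 lower, with a median log2 ratio of 0.63. Cpt1c, Slc19a2, Dglucy and Pvt1 reached 5 CPM in members alone and are not counted. Dcxr, an enzyme that reduces sugars and dicarbonyls, was at 103 against 13.8 CPM, 7.498-fold higher (6.94 to 8.10). The carnitine acyltransferase Cpt1c had 21.7 against 2.86 CPM, the lipid phosphatase Lpin1 26.0 against 5.31 and the adenylate kinase Ak1 43.9 against 7.16. Rps27l, a ribosomal protein variant, was at 1545 against 836 CPM (1.85-fold, 1.82 to 1.88), while 87 of the 88 measured ribosomal protein genes lay within 1.5-fold and Rps27l was the exception. The noncoding RNA Trp53cor1, which lies beside Cdkn1a, had 20.1 against 4.88 CPM. Fdxr, a mitochondrial reductase, stood at 28.6 against 23.9 CPM and the peroxidase Gpx1 at 531 against 468.

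**Figure D2:**
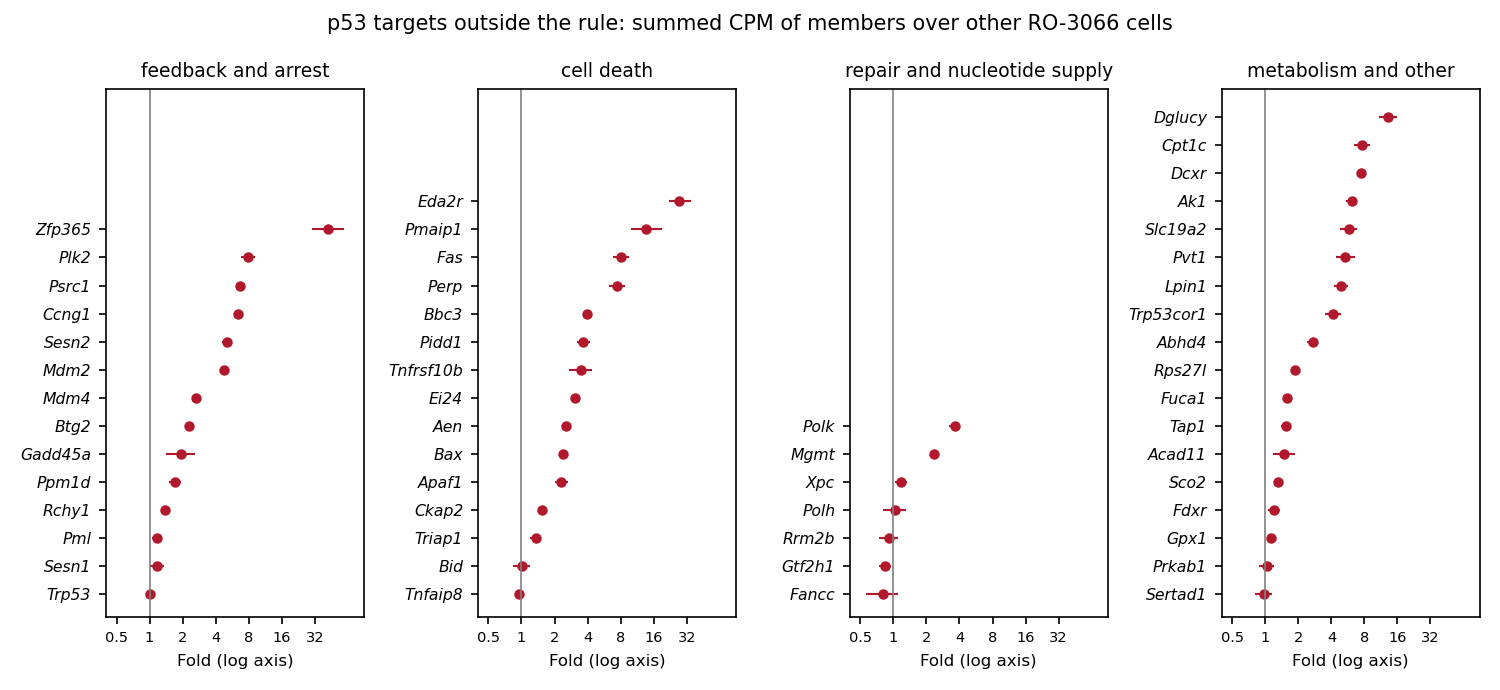
Fold of summed CPM, members over other RO-3066 cells (log axis), for each p53 target outside the rule with at least 5 CPM in either group, by role, the 11 that reached it in members alone included; points are folds and lines their intervals of counting error. Most genes of feedback, death and metabolism lie right of 1, up to Zfp365 at 42.4, while 5 of 7 repair genes lie within 1.5-fold of 1.

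These targets also followed the load within and below the members. Over 6 bands of load in RO-3066 cells (under 50, to 100, to 200, to 400, to 800 and from 800 CPM), Mdm2 was at 23.1, 23.7, 28.0, 36.2, 63.2 and 181 CPM. Ccng1 went from 19.6 CPM in the lowest band to 55.7 in the fourth, 104 in the fifth and 207 in the highest. The summed targets stood at 2778 CPM in the lowest band, 3636 in the fourth, 4397 in the fifth and 6449 in the highest. Cells just under the limit thus held intermediate levels, and the limit divides a continuous range. The same sums in DMSO cells were 2658, 3421, 4329 and 5660 CPM, the last from 12 cells.

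**Figure D3:**
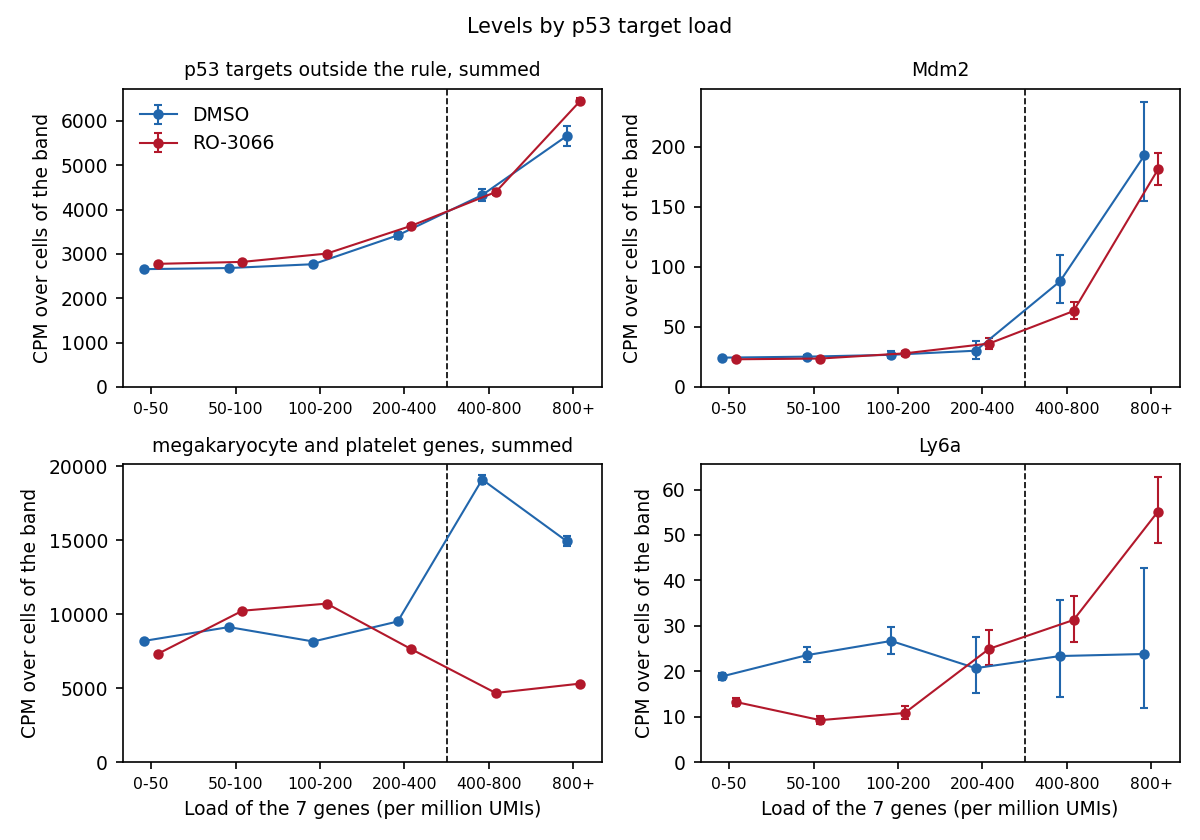
CPM summed over the cells of each band of p53 target load, in DMSO and RO-3066 cells, for the p53 targets outside the rule, Mdm2, the megakaryocyte and platelet genes and Ly6a; bars are intervals of counting error and the dashed line marks the limit of 400 CPM. p53 targets and Mdm2 are highest in the last band in both libraries, at 6449 and 181 CPM in RO-3066, where both climb from the third band on. Mdm2 in DMSO stood at 26.8 CPM in the third band, 30.2 (23.5 to 38.2) in the fourth and 87.9 in the fifth. The megakaryocyte genes of the libraries part beyond the line.

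The difference was spread over the members rather than held by a few cells. In cells thinned to 10000 UMIs, RO-3066 members had a median of 50 UMIs of the targets outside the rule (lowest 23, highest 103) and the other RO-3066 cells 28 (11 to 62). Of the 259 members, 215 (83.0%) lay above the 90th percentile of the other cells, which was 37 UMIs. The 3 members richest in Mdm2 held 8.03% of the members' Mdm2 UMIs, and those richest in Ccng1 5.71%.

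The targets were also higher in the 33 DMSO members than in the other DMSO cells. Within DMSO, 18 of 38 targets with at least 5 CPM over all kept cells were at least 1.5-fold higher in members and 2 lower, against 6.47% and 9.36% of 8927 genes, with a median log2 ratio of 0.50. Mdm2 was at 124 CPM in DMSO members and 24.8 in the other DMSO cells, Ccng1 at 137 against 18.1, Bax at 695 against 266 and Bbc3 at 72.8 against 14.7. Of the thinned DMSO members, 28 of 33 lay above the 90th percentile of the other cells. Summed over all 67, the targets held 5328 CPM in RO-3066 members and 4781 in DMSO members. Of 54 targets with at least 5 CPM in members of either library, 14 were at least 1.5-fold higher in RO-3066 members and 1 lower, against 13.3% and 8.45% of 9692 genes, with a median log2 ratio of 0.29. Among members, the ratio of RO-3066 over DMSO was 0.945 for Mdm2 (0.802 to 1.12), 1.10 for Ccng1 (0.945 to 1.29) and 1.07 for Bbc3 (0.868 to 1.34). For Psrc1 it was 1.95 (1.55 to 2.49). These intervals leave out the spread between cells, so they cannot show whether the members of the libraries are alike. The 3 DMSO members richest in Mdm2 held 57.1% of the DMSO members' Mdm2 UMIs, and those richest in Ccng1 38.7%. The 3 DMSO members of most UMIs held 41.4% of all UMIs of the 33. Without them the median log2 ratio of the targets was 1.14, and with them 1.26 (genes of at least 5 CPM in either group). Of the 52 genes behind the latter value, 14 reached 5 CPM in DMSO members alone and so had to be higher there. The step without the 3 members was not made on the other 38.

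Most genes differed little between members and other RO-3066 cells. Outside the rule, 5831 genes reached 20 CPM in members or in other cells; 225 (3.86%) were at least 1.5-fold higher in members and 131 (2.25%) at least 1.5-fold lower, and 5475 lay between. The 12 highest named genes with at least 50 CPM were Dcxr, Psrc1, Ccng1, Gtse1, Cox6b2, Mdm2, Bbc3, Rnf169, Ei24, Snx20, Ptp4a3 and Hist1h3c. Gtse1, a G2 and S phase protein that shuttles p53 out of the nucleus, was at 59.0 against 9.50 CPM (6.21-fold, 5.62 to 6.86). Cox6b2, a subunit variant of cytochrome oxidase best known from testis, stood at 192 against 39.8 CPM (4.84-fold, 4.58 to 5.10). The sorting nexin Snx20 had 61.2 against 20.04 CPM, the ubiquitin ligase Rnf169, which binds chromatin at breaks, 53.3 against 17.1, and the phosphatase Ptp4a3 281 against 105. All 5 were also higher in DMSO members than in the other DMSO cells, Cox6b2 at 86.0 against 20.6 CPM and Gtse1 at 54.4 against 9.90. Ddit4, which like Ddit4l restrains mTORC1, was at 49.7 against 13.5 CPM within RO-3066, while the other 21 measured genes of the integrated stress response held 0 higher and 1 lower.

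Histone genes were higher in RO-3066 members. Of 39 replication-dependent histone genes with at least 5 CPM over all kept RO-3066 cells, 37 were at least 1.5-fold higher and 0 lower, with a median log2 ratio of 1.01. The summed level of the 67 genes listed was 4093 CPM in members and 1944 in the other cells. Hist1h1b, a linker histone, stood at 776 against 392 CPM and Hist1h2ae at 264 against 102. In thinned cells the median was 25 histone UMIs in members (lowest 1, highest 175) and 10 in the others (0 to 220), so the ranges overlapped and 41 members (15.8%) lay above the others' 90th percentile. When every cell counted equally the median log2 ratio was 0.55, and with the other cells weighted to the members' depth 0.52. Within DMSO the direction was the opposite, with 31 of 45 histone genes lower in members, 3 higher and a sum of 2576 against 5086 CPM; of 9486 genes of at least 5 CPM in either group of DMSO cells, 9.99% were higher and 8.82% lower. Histone genes are near-identical copies whose reads the counting could split, so single genes among them are uncertain.

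As among all genes, few cell cycle genes passed 1.5-fold between RO-3066 members and other cells. Of 53 genes of G2 and M phase, 2 (Gtse1 and Hmmr) were higher and 1 (Ckap2l) lower, with a median log2 ratio of 0.11. Of 43 S phase genes 0 passed 1.5-fold in either direction, with a median of -0.17. Over all 9197 genes of at least 5 CPM over all kept RO-3066 cells, 3.35% were higher and 3.28% lower. Mki67, a marker of cycling cells, was at 396 against 296 CPM, the kinase Cdk1 at 215 against 255 and its partner Ccnb1 at 91.4 against 106. In cells thinned to 10000 UMIs, the phase score called 80.7% of RO-3066 members G2M (75.4 to 85.3%), 10.0% S and 9.27% G1 (6.03 to 13.5%). The other RO-3066 cells were 83.5% G2M (82.2 to 84.7%), 14.3% S and 2.20% G1 (1.73 to 2.75%). Members were thereby 24 of the 99 RO-3066 cells called G1 (24.2%), 5.06% of those called S and 6.83% of those called G2M. A call of G1 means only that neither score was above 0.

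DMSO members carried fewer transcripts of dividing cells than the cells around them. Of the 53 genes of G2 and M phase, 42 were lower and 1 higher within DMSO, with a median log2 ratio of -0.87. Of 43 S phase genes, 12 were lower and 0 higher. Over all 8927 genes of at least 5 CPM over all kept DMSO cells, 9.36% were lower and 6.47% higher. Top2a, the topoisomerase of dividing cells, was at 244 CPM in DMSO members against 549 in the other DMSO cells, but at 468 against 409 CPM within RO-3066. The phase score called 33.3% of the 33 DMSO members G1 (17.96 to 51.8%) and 4.35% of the other DMSO cells. Whether the contrast between the libraries holds in other cultures was not tested.

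**Figure D4:**
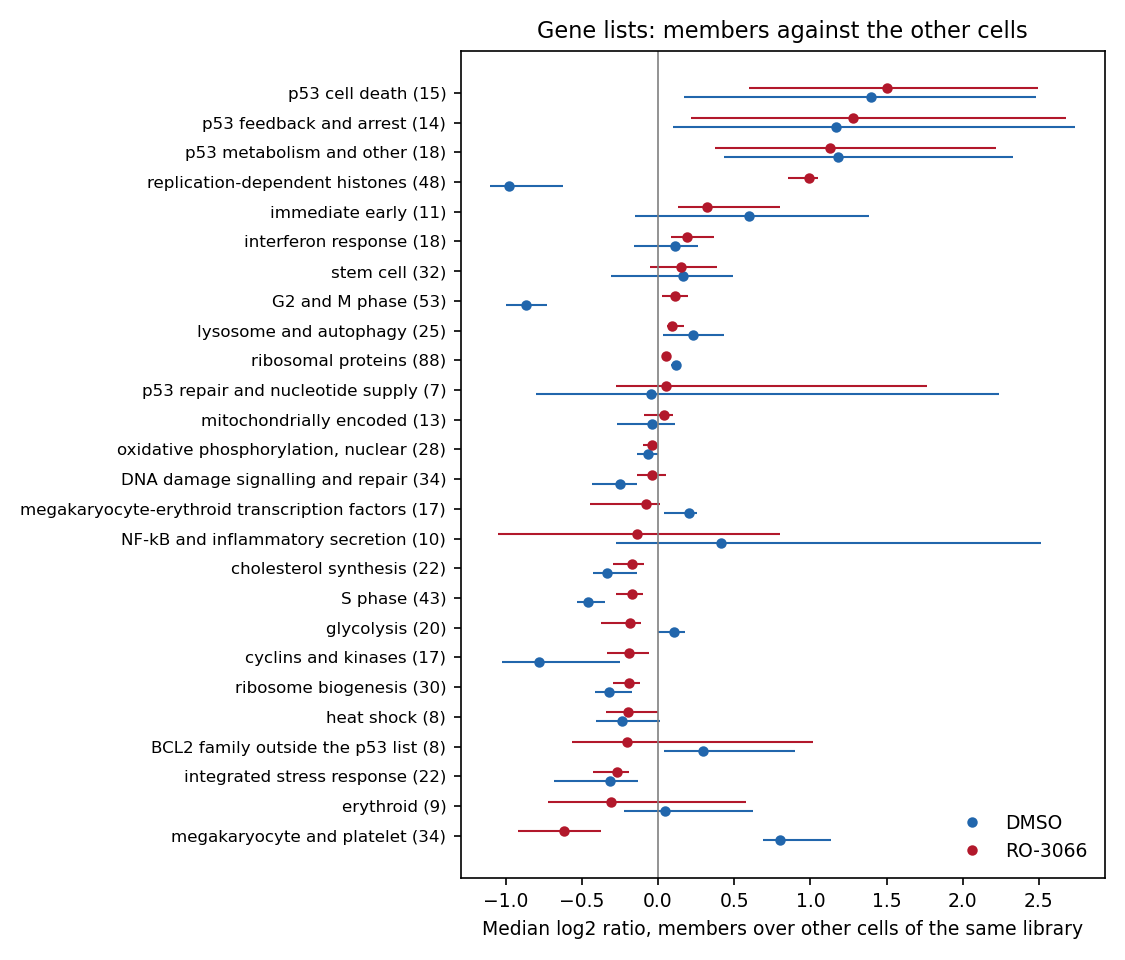
Median log2 ratio of members over other cells of the same library for each gene list with at least 5 measured genes in both libraries (their number in RO-3066 in brackets); lines are intervals of the median over the genes. Genes that reached 5 CPM in members alone are included. The medians of p53 death, feedback and metabolism lie right of 0 in both colours. Over genes of at least 5 CPM over all kept cells, these were 1.196, 1.28 and 0.63 in RO-3066. In DMSO they were 0.83, 0.61 and 0.47. The histone list (0.99 in RO-3066, -0.98 in DMSO) and the megakaryocyte list (-0.62 and 0.80) fall on opposite sides.

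Megakaryocyte and platelet genes were lower in RO-3066 members by summed counts. Of 34 measured genes, 17 were at least 1.5-fold lower and 1 higher, with a median log2 ratio of -0.62. Over all 9507 genes of at least 5 CPM in either group, 3.19% were lower and 4.75% higher. Pf4, the platelet chemokine (chromosome 5, 90772435 to 90773383), was at 1736 CPM in members and 4366 in the other cells, 0.398-fold (0.391 to 0.404). Treml1, a receptor of platelet granules, was at 23.2 against 82.1 CPM, Vwf, the clotting adhesive, at 28.9 against 67.4, and Ppbp, another platelet chemokine, at 7.5 against 39.0. The integrin subunit Itga2b, which appears early in the lineage, had 196 against 283 CPM. Serpine2, a protease inhibitor, was the gene higher in members, at 70.4 against 36.4 CPM. Of 17 transcription factors of the megakaryocyte and erythroid lineages 4 were lower, among them Mef2c, Gata1 and Gfi1b, while Runx1 stood at 125 against 123 CPM and Gata2 at 136 in both groups.

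Few members were among the cells richest in these transcripts. Thinned to 10000 UMIs, members and other RO-3066 cells had the same median of 31 UMIs of megakaryocyte and platelet genes, but 4 members (1.54%) and 341 others (9.99%) lay above 146 UMIs, the others' 90th percentile. By share of a cell's UMIs, 25 members (9.65%, 6.34 to 13.9%) and 894 other cells (26.2%, 24.7 to 27.7%) were above the 75th percentile of the RO-3066 library for these genes. Without those cells in either group the median log2 ratio of the list was 0.05 and Pf4 stood at 0.20; they were picked by the same genes, so these values only describe which cells hold the UMIs. Cells rich in these transcripts were also deep, and with the other cells weighted to the members' depth the median was -0.19; the part of depth in the difference was not tested further.

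**Figure D5:**
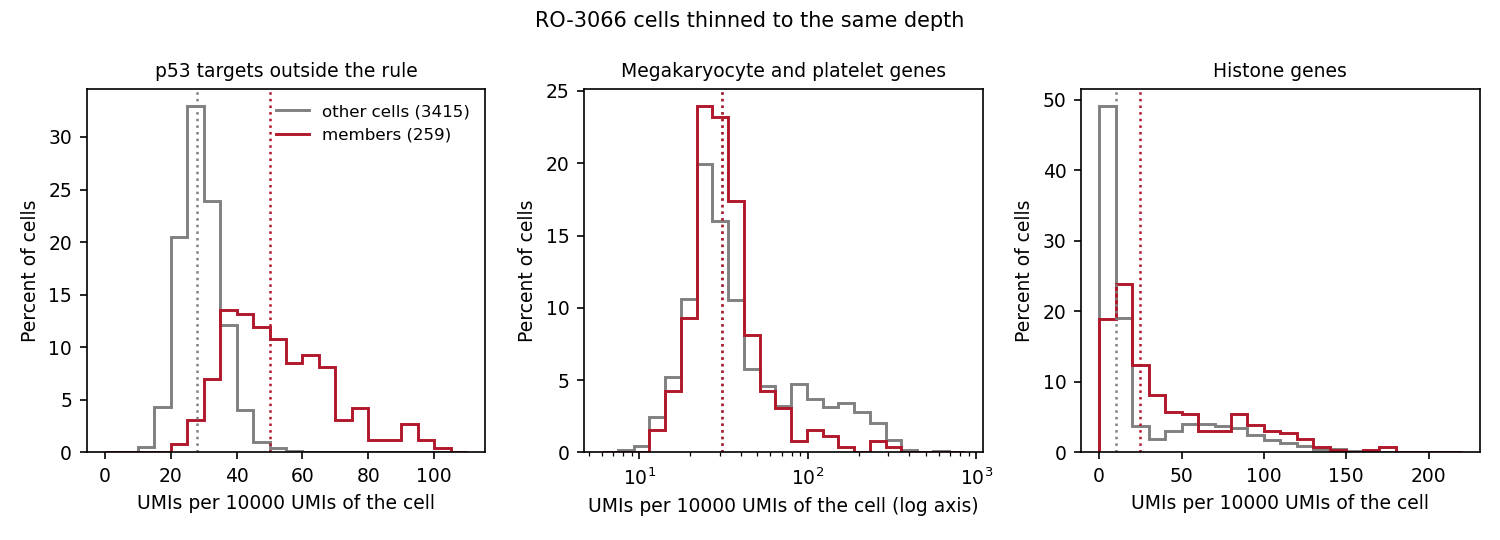
Percent of RO-3066 members and of other RO-3066 cells by UMIs of the p53 targets outside the rule, of megakaryocyte and platelet genes (log axis) and of histone genes, in cells thinned to 10000 UMIs; dotted lines are medians. The p53 targets shift as a whole (50 against 28 UMIs), the megakaryocyte medians coincide at 31 while the others have a longer right tail, and the histone medians are 25 against 10.

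Within DMSO, 22 of 31 megakaryocyte genes with at least 5 CPM over all kept cells were higher in members and 0 lower. Over all 8927 genes at that level, 6.47% were higher and 9.36% lower. The median log2 ratio of the 31 was 0.78, but few cells made this difference up. The 3 members with most Pf4 held 84.1% of the members' Pf4 UMIs, and the 3 with most Ppbp 97.9%. Counting genes of at least 5 CPM in either group, 27 of 36 were higher, against 9.99% of 9486 genes, with a median of 0.80. Without the 3 DMSO members of most UMIs (164180 to 221462 each) that median was 0.13, with 6 genes higher and 2 lower of 34, and Pf4 was lower in members (log2 -0.57).

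Several stem cell genes were higher in RO-3066 members. Of 31 listed genes with at least 5 CPM over all kept RO-3066 cells, 5 (16.1%) were higher and 1, the adhesion molecule Esam, lower, against 3.35% and 3.28% of all genes, with a median log2 ratio of 0.12. Summed over the 36 genes listed, the level was 3448 CPM in members and 2784 in the other cells, 1.24-fold (1.22 to 1.25). Over genes of at least 5 CPM in either group the list median was 0.15 (-0.05 to 0.39 over the genes). It was 0.04 with the other cells weighted to the members' depth and -0.03 in cells of at least 20000 UMIs. Over all alternatives it lay between -0.07 and 0.25, so the list as a whole did not clearly differ. Ly6a, the Sca-1 surface antigen by which stem cells are sorted (chromosome 15, 74994877 to 74998031), was at 42.1 CPM in members and 12.1 in the other cells, 3.49-fold higher (3.12 to 3.89). Txnip, a thioredoxin inhibitor, had 101 against 60.1 CPM, and Procr, the protein C receptor, which reached 5 CPM in members alone, 9.60 against 3.76. The transcription factor Hlf was at 108 against 69.3 CPM, a log2 ratio of 0.63, which fell under 1.5-fold with the other cells weighted to the members' depth (0.096), with S and G2M calls at equal weight (0.18), in cells of at least 20000 UMIs (0.29) and without the cells highest in megakaryocyte genes (0.12). Mecom, a self-renewal factor, stood at 93.8 against 65.2 CPM and the receptor Kit at 99.8 against 101. In thinned cells 36 members (13.9%) and 126 others (3.69%) had more than 1 Ly6a UMI. Ly6a was at 20.3 CPM in the other DMSO cells and 23.5 in DMSO members (fold 1.16, 0.791 to 1.64). Ly6a is also an interferon-responsive gene, and of 18 genes of that response it was 1 of 3 higher, with Ifitm1 (825 against 528 CPM) and Bst2 (200 against 129 CPM).

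The gene that led the load went with other differences among RO-3066 members. The 193 members led by Cdkn1a held 5419 CPM of the targets outside the rule, 2002 CPM of Pf4 and 33.7 CPM of Ly6a. The 33 led by Gdf15 held 4566, 254 and 77.6 CPM. Their median depths were 35913 and 16748 UMIs, and the part of depth in these values was not tested.

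Members were found in each of the clusters of the RO-3066 library. RO-3066 cells were clustered without p53, cell cycle, histone, ribosomal and mitochondrial genes among the variable genes, which gave 8 clusters. The share of members was lowest, at 1.03% (4 of 389 cells, 0.281 to 2.61%), in the cluster with most Pf4 (12074 CPM). It was highest, at 18.2% (67 of 368 cells, 14.4 to 22.5%), in a cluster whose leading genes were histones although they had not been used. The largest cluster, of 811 cells, was also led mostly by histone genes and held 85 members (10.5%), or 32.8% of all. The targets outside the rule stood at 4594 to 6089 CPM in the members of the 8 clusters and at 2768 to 2980 CPM in the other cells of the same clusters, so these ranges did not overlap. Without the cluster richest in members, and with the other histone-led cluster kept, the median log2 ratio of the targets was 1.06 and that of the histone list 0.67.

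Between the libraries, targets outside the rule and Gtse1, which is listed with G2 and M phase, were compared over all kept cells and without members. The second comparison leaves out the cells chosen for a high load. For Mdm2 the fold of RO-3066 over DMSO was 1.15 (1.11 to 1.198) over all and 0.987 (0.946 to 1.03) without members, for Gtse1 1.19 (1.11 to 1.26) and 0.960 (0.896 to 1.03), and for Ccng1 1.61 (1.54 to 1.68) and 1.31 (1.25 to 1.37). Of the targets outside the rule, 8 of 43 were at least 1.5-fold higher in RO-3066 over all cells and 0 lower, against 5.17% and 2.15% of 9331 genes. Without members 4 of 41 were higher and 0 lower, against 5.27% and 2.24% of 9318 genes.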

How the data were processed

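Single-cell RNA of cultured mouse hematopoietic stem cells was measured in 2 libraries, grouped by the labelled treatment. The authors deposited raw UMI counts per gene and barcode, not normalized. Cell Ranger 5.0.1 and mm10 are named per the submitters' processing notes, and Cell Ranger 7.1.0 per the file headers; for the annotation release and the treatment of introns, the answer is not given in the sources used here. All 32285 gene identifiers were looked up in GENCODE vM21, and 32158 were found. Members and gene lists (32, with 637 of 639 symbols found) were chosen with earlier results of these data known.

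UMIs were summed over members and over the other kept cells of a library and expressed as CPM. Folds are ratios of CPM, and log2 ratios carry a pseudocount of 1. Intervals of folds come from the exact conditional distribution of Poisson counts, those of shares are Clopper-Pearson, and those of list medians are binomial over genes. Counts of genes use 1.5-fold, with at least 20 CPM for all genes and 5 CPM for lists; genes at 5 CPM over all kept cells are given where members alone could carry a gene past the minimum. With 1 library per group no p-value was computed. Named genes were a fixed set, the 12 highest and 12 lowest ratios of at least 50 CPM (unnamed models and mt- and ribosomal protein genes left out) and the 3 largest of at least 20 CPM per list; further list members were named after their values were seen. Doublets were scored against simulated pairs among 50 neighbours at 0.8% per 1000 barcodes. Cells were thinned to 10000 UMIs for phases (scanpy 1.11.5) and per-cell values. Clusters used 2000 variable genes, 30 components, 20 neighbours and Leiden at resolution 0.8 (leidenalg 0.10.2). The calculation was tested on simulated data. Other tools were scipy 1.17.1, pandas 2.3.3, numpy 2.4.6 and Python 3.11.15. Alternatives covered the limit, the rule's genes, depth, doublets, weights, phase, scaling and minimum levels; those on 4 or more detected genes, on other cells of low load, on the cluster and megakaryocyte-rich cells, on few deep cells and on genes at 5 CPM over all kept cells were added after the data were seen. A few genes that these rules take are not reported here.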

Additional observations from a re-analysis of the deposited data

Results flagged for a closer look

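Some results lay on opposite sides in the libraries, members over other cells, at 0.2 or more on the log2 scale for lists and at 1.5-fold for genes; there were 22 of them, 5 lists and 17 genes, and the difference between the libraries was not tested. The list medians were -0.62 in RO-3066 and 0.80 in DMSO for megakaryocyte and platelet genes, 0.99 and -0.98 for histones, 0.29 and -0.67 for CDK inhibitors other than Cdkn1a, -0.20 and 0.29 for the BCL2 family outside the p53 list, and -0.33 and 0.22 for neutrophil and monocyte genes. The last rested on 6 genes in RO-3066 and 4 in DMSO. Over genes of at least 5 CPM over all kept cells of a library the BCL2 median in DMSO was 0.074, under the limit of 0.2, since Bcl2l11 and Bik reached 5 CPM in DMSO members alone; the medians of the other 4 lists kept their signs and stayed past the limit.

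Genes lower in RO-3066 members and higher in DMSO members were Pf4 (log2 -1.33 and 1.31), Ppbp (-2.23 and 3.16), Treml1 (-1.78 and 0.79), Vwf (-1.19 and 1.14), Gp1bb (-1.82 and 0.78), Rab27b (-1.35 and 1.11), Cavin2 (-1.12 and 0.81), Clu (-1.07 and 1.58), Timp3 (-1.48 and 1.51), Rgs10 (-1.20 and 1.63), Tpm4 (-1.04 and 1.19) and Ehd3 (-1.12 and 0.92). Without the 3 DMSO members of most UMIs, 6 of these were lower in DMSO members too: Pf4 (-0.57), Vwf (-0.39), Tpm4 (-0.56), Cavin2 (-0.09), Ehd3 (-0.03) and Gp1bb (-0.29). Clu (0.04), Treml1 (0.15) and Rab27b (0.27) then fell under 1.5-fold, while Ppbp (1.57), Timp3 (0.63) and Rgs10 (0.69) stayed past it.

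Genes higher in RO-3066 members and lower in DMSO members were Hist1h2ae (log2 1.36 and -1.31), Hist1h2an (1.43 and -1.71), Hist1h3c (1.39 and -0.98), Hmmr (0.73 and -1.59), which encodes a spindle protein, and Hbb-bt (0.59 and -0.97), a globin gene whose reads a near-identical copy can share. Without the 3 deep DMSO members the histone median in DMSO was -0.65. Hist1h3c (-0.28) and Hbb-bt (-0.35) then fell under 1.5-fold in DMSO, while Hist1h2ae (-0.73), Hist1h2an (-1.49) and Hmmr (-1.01) stayed past it.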

How the results depend on the processing

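Of values that answer a comparison, 90 stayed within the main interval, or for gene counts within 1.5-fold, under the alternatives, and 25 moved. Shares and gene counts have no sign, so only the medians of the p53 targets could reverse. None of these medians did. The median log2 ratio of the p53 targets outside the rule stayed between 0.63 (S calls only) and 1.60 (rule without Cdkn1a) in RO-3066 and between 0.50 (genes at 5 CPM over all kept cells) and 1.46 (limit of 600) in DMSO. The share of members in RO-3066 and DMSO was 8.49% and 0.860% at a limit of 300 CPM, 4.65% and 0.314% at 600, 3.70% and 0.165% without Cdkn1a in the rule, 8.17% and 0.876% in thinned cells, and 6.05% and 0.340% at 20000 UMIs; it was 5.91% of RO-3066 cells when at least 4 of the 7 genes had to be detected. Genes higher and lower in RO-3066 members, 225 and 131, were 385 and 232 without Cdkn1a in the rule, 700 and 518 without a minimum level, 90 and 53 at 50 CPM, and 100 and 33 at 2-fold. Genes lower were 50 in thinned cells, 52 with every cell at the same weight, 26 with depth matched by UMI decile, 83 with S and G2M calls at equal weight, 200 in S calls and 21 without the cells highest in megakaryocyte genes. The last alternative leaves out cells by the same genes that make up the list, so its values describe where the UMIs lie and bear on nothing else; it reversed the megakaryocyte list (0.051), the erythroid list (0.019), Cavin2 (0.046), Ckap2l (0.14), Clu (0.40), Gp1bb (0.049), Pf4 (0.20), Rgs10 (0.081), Timp3 (0.67), Tpm4 (0.26) and Vwf (0.28). S calls alone reversed the integrated stress response (0.11), the BCL2 family (0.12), Egr1 (-0.75), Gata1 (0.16), Hbb-bt (-0.21), Hlf (-0.36), Nkg7 (0.59) and Txnip (-0.033). Thinning reversed the neutrophil and monocyte list (0.046), and 50 CPM the erythroid list (0.14). Leaving out the 3 deepest DMSO members reversed 6 genes within DMSO: Pf4 (-0.57), Vwf (-0.39), Tpm4 (-0.56), Cavin2 (-0.090), Ehd3 (-0.031) and Gp1bb (-0.29). Apart from these constructions the cause was not tested. No paired analysis was possible because each treatment has 1 library, and no replicate could be left out. A load of 5 UMIs in the shallowest members limits how sharply the limit of 400 CPM divides cells.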

Other observations

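Among lists not described above, immediate early genes had 3 of 9 genes of at least 5 CPM over all kept RO-3066 cells at least 1.5-fold higher in RO-3066 members and 0 lower, against 3.35% of all genes higher, with a median log2 ratio of 0.32. Fos and Dusp1 reached 5 CPM in members alone and are not counted. Jun was at 29.1 against 18.1 CPM, Klf6 at 46.1 against 28.7 and Egr1 at 32.9 against 18.4; all 3 encode transcription factors that respond to growth signals and stress within minutes. Of NF-kB and inflammatory genes, 2 of 10 were higher and 3 lower. The adhesion molecule Icam1 stood at 15.9 against 5.90 CPM and the cytokine Il1b at 3.64 against 9.77. In glycolysis 1 of 20 genes passed 1.5-fold, the lactate transporter Slc16a3, at 8.93 CPM in members against 25.9. Nuclear genes of oxidative phosphorylation (28), ribosome biogenesis (30), cholesterol synthesis (22), the lysosome and autophagy (25) and heat shock (8) held 0 members past 1.5-fold in either direction within RO-3066, with medians between -0.20 and 0.09. Over all 9197 genes at that level, 3.35% were higher and 3.28% lower, so counts of 0 in lists of this size lie near these shares.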
